A study of Homo sapiens with 6 samples.

Results

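The 10 genes of vasoactive signalling described here were the endothelin genes *EDN1*, *EDNRA*, *EDNRB* and *ECE1*, the angiotensin receptor gene *AGTR1*, the natriuretic peptide receptor gene *NPR3*, and the prostaglandin genes *PTGS1*, *PTGS2*, *PTGIS* and *PTGER2*. They were taken by gene symbol, and all 10 were found once among the 58735 genes of the count table. RNA of UE7T-9, a human mesenchymal stem cell line from bone marrow kept in DMEM, was compared with RNA of the UE7T-9 SRRM4 KO line, with 3 libraries in each group. The control libraries carry the genotype WT. The study also made UE7T-9 cells with a lentiviral Cas9 vector for its library screen, and whether the sequenced control cells carried a vector is not given in the sources used here. The SRRM4 KO line had received a lentiviral CRISPR v2 vector against *SRRM4* and was grown from 1 clone after puromycin selection, and in the study's protein blot some SRRM4 protein was left. A difference between the groups is therefore a difference between this clone and the control culture, and the knockout and the clone cannot be told apart. Nothing says that the 3 libraries of a group came from separate cultures, so the p-values measure only the spread between these libraries, which may be technical.

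The libraries held between 21496117 and 23868323 counts, and *SRRM4* had 0 counts in all 6, which gives no check of the knockout. A count of 0 allows up to 3 counts, or 0.123 to 0.139 CPM (counts scaled to a common effective library size), for counting error only. Among control libraries, replicate 1 was the farthest from the rest: its chi-square per degree of freedom was 23.0 against replicate 2 and 23.5 against replicate 3, where replicates 2 and 3 gave 5.63. The stem cell surface genes *NT5E*, *ENG* and *THY1* stood at 342, 246 and 144 CPM in control. In SRRM4 KO cells they stood at 490, 194 and 26.7 CPM. By flow cytometry the study found little CD90, the protein of *THY1*. It states that its control cells lacked CD90 and so did not meet the stem cell definition it cites, and it names the antibody among possible reasons. Of the haematopoietic list, the T cell gene *CD3E* was at 0 in every library and the pan-leukocyte gene *PTPRC* had at most 2 counts, while *CD14* (16.8 and 15.9 CPM in control and SRRM4 KO cells) and *CD34* (3.69 and 3.63 CPM) were detected in all 6 libraries, and *ITGAM* had 5, 14 and 13 counts in control and 0 in SRRM4 KO cells.

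Endothelin-1 is made as a precursor that is cut by furin and then by endothelin converting enzyme, and the mature peptide acts on the receptors ETA and ETB, which are coupled to G proteins. Natriuretic peptides raise cyclic GMP through the receptor enzymes NPR1 and NPR2, while NPR3 clears the peptides from the surroundings of the cell. Prostaglandins start from arachidonic acid, which the cyclooxygenases PTGS1 and PTGS2 convert to prostaglandin H2, and terminal synthases turn it into prostacyclin, prostaglandin E2, thromboxane and others. Bone marrow stromal cells are known to respond to these peptides and lipids, and endothelial and smooth muscle cells are their classical sources and targets.

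Each of 15341 genes was tested for a difference between SRRM4 KO and control with the quasi-likelihood test of edgeR, and p-values were adjusted over all of them (Benjamini-Hochberg). A gene that passed an adjusted p of 0.05 is said to have risen or fallen, and a gene is said to be called when its log2 fold change was also beyond 1 in either direction. Of the 10 genes, 8 had enough counts to be tested. *EDN1*, *PTGS2* and *PTGER2* were called higher, where 5.45% of all tested genes were called higher, and *EDNRA*, *NPR3* and *PTGIS* were called lower, where the share was 7.14%. *ECE1* rose by less than the fold threshold, so that 4 of the 8 passed the adjusted p as higher (20.7% of all tested genes did) and 3 as lower (20.9%). *AGTR1* did not pass, and *EDNRB* and *PTGS1* were too low to be tested. Without control replicate 2, 1 of these genes was called higher (*PTGER2*) and 3 lower, and without control replicate 1, 2 were called higher and 3 lower. Control and SRRM4 KO libraries were fully apart in 7 of the 8, a pattern that 51.8% of all tested genes share. With 3 libraries against 3, the two-sided exact permutation p of a single gene cannot be smaller than 0.10, which is what each of these 7 genes gave.

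**Figure D1:**
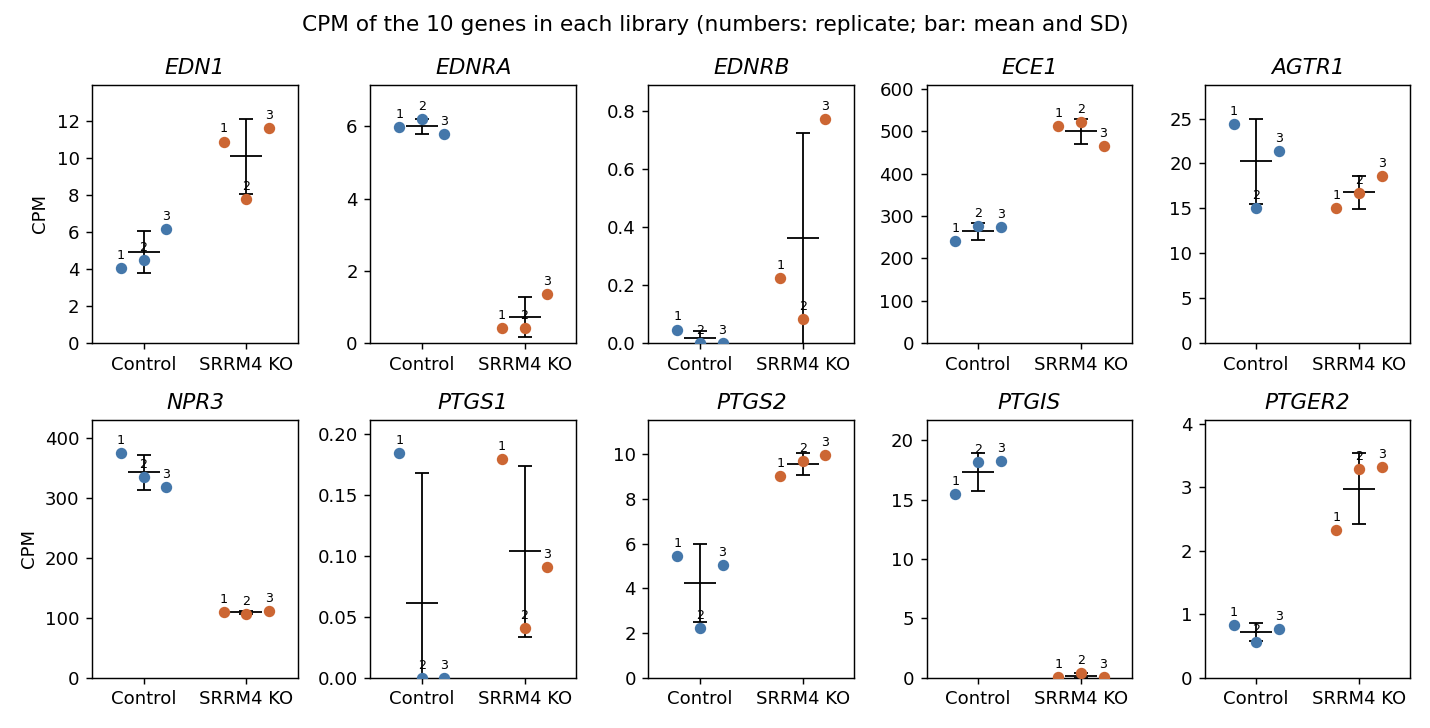
CPM of the 10 genes in each library, with 3 control and 3 SRRM4 KO libraries per panel. Points are libraries, the digits above them are replicate numbers, and bars give the mean and SD, cut at 0. The groups are apart in *EDN1*, *EDNRA*, *ECE1*, *NPR3*, *PTGS2*, *PTGIS* and *PTGER2*, and the *AGTR1* and *PTGS1* panels overlap. *EDNRB* also shows no overlap, at 1 count or fewer in control.

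*EDN1*, *PTGS2* and *PTGER2* are shown with sequence before their start sites. They were picked because they were called higher in these data and have a RefSeq start (GRCh38.p14) within 10 bases of the gene start in the count table. RefSeq windows were matched for 8 of the 10 genes. The windows were searched on both strands for the TATA box letters TATAAA, the AP-1 letters TGACTCA, the cyclic AMP element letters TGACGTCA with their first part TGACG, the GC box letters GGGCGG, the CCAAT box letters CCAAT, the GATA letters GATAA and the SMAD letters CAGACA, and matches in either orientation are in capitals. *EDN1* (chr6:12290318-12290347, plus strand) is shown as a stretch of 30 bases, and *PTGS2* (chr1:186680428-186680673, minus strand) and *PTGER2* (chr14:52314062-52314304, plus strand) as the bases up to the annotated transcript.
EDN1: ataggggttcaaTATAAAaagccggcagag
PTGS2: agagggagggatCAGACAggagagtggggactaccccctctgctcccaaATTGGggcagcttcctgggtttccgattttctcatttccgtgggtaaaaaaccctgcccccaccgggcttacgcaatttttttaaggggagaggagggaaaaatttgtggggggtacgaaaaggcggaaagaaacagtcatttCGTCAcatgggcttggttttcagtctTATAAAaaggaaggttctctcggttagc
PTGER2: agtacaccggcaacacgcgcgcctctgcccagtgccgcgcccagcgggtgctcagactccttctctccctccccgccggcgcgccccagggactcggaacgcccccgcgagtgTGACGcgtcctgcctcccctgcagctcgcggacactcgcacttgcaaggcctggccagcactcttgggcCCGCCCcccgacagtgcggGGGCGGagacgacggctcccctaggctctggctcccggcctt

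The letters TATAAA began 31 bases before the start of *EDN1* and 32 before that of *PTGS2*, both on the gene's strand, and were not found in the window of *PTGER2*. Of the 35116 windows of 250 bases in the RefSeq table, 10.7% hold TATAAA in either orientation. *PTGS2* also held TGACG in reverse, 58 bases before the start, and *PTGER2* held it 137 bases before (21.2% of windows). GGGCGG was found in both orientations in *PTGER2*, at 49 and 68 bases before the start (42.6% of windows). In *PTGS2*, CCAAT in reverse (32.0% of windows) and CAGACA (13.6%) lay 201 and 238 bases before the start. The window of *EDN1* also held, outside the stretch shown, CAGACA in reverse at 87 bases before the start and GATAA in reverse at 136 (20.4% of windows). TGACTCA and TGACGTCA were in none of the 8 matched windows. Some of the same letters were also in windows of members that were not called higher. TATAAA was in that of *PTGS1*, GGGCGG in those of *EDNRA*, *ECE1* and *PTGS1*, and CCAAT in those of *ECE1* and *NPR3*. GATAA was in those of *EDNRB* and *PTGS1*, and CAGACA in that of *PTGS1*. These are matches of letters, and no binding was measured.

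*EDN1* encodes the precursor of endothelin-1 and lies on chromosome 6 from 12290363 to 12297194 (GRCh38, GENCODE release 29, as are all positions of genes here). Its counts were 88, 97 and 138 in the control libraries and 243, 190 and 256 in the SRRM4 KO libraries. Every SRRM4 KO library was above every control library. The level went from 4.91 ± 1.12 to 10.1 ± 2.04 CPM (SD, n = 3), and the log2 fold change was 1.04 (standard error 0.21, 95% interval 0.59 to 1.48, adjusted p = 0.000953 by edgeR). The rise passed the adjusted p in each fit that left out 1 library, but the fold change lay under the threshold without control replicate 1 (0.92), control replicate 2 (0.98), SRRM4 KO replicate 1 (0.97) or SRRM4 KO replicate 3 (0.92).

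*ECE1* encodes the converting enzyme. It lies on chromosome 1 (21217247 to 21345572), and control libraries held 5216, 5969 and 6116 counts against 11405, 12726 and 10242 in SRRM4 KO cells. The groups were well apart, and the SD was 7.66% of the mean in control and 6.07% in SRRM4 KO cells. The level rose from 264 ± 20.2 to 499.9 ± 30.4 CPM (SD, n = 3), a 1.89-fold rise (log2 fold change 0.92, standard error 0.08, 95% interval 0.75 to 1.10, adjusted p = 3.34e-07 by edgeR). The interval of *ECE1* reaches past the fold threshold.

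*EDNRA* (chromosome 4, 147480917 to 147544954) encodes ETA, the receptor through which endothelin-1 contracts smooth muscle. Its counts were 130, 134 and 129 in control and 9, 10 and 30 in SRRM4 KO cells. Control libraries lay close together, and among the SRRM4 KO libraries replicate 3 was the highest. The level fell from 6.0 ± 0.218 to 0.726 ± 0.552 CPM (SD, n = 3), an 8.28-fold fall (log2 fold change -3.05, standard error 0.38, 95% interval -3.86 to -2.24, adjusted p = 1.13e-05 by edgeR). Without SRRM4 KO replicate 3 the log2 fold change was -3.87.

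*EDNRB* (chromosome 13, 77895481 to 77975529) encodes ETB, which also takes up endothelin-1. It had 1, 0 and 0 counts in control and 5, 2 and 17 in SRRM4 KO cells, too few for the main test. The highest control library had 1 count and the lowest SRRM4 KO library 2. The ratio of the summed counts, scaled by effective library size, was 22.9, with an exact 95% interval of 3.74 to 943 that covers counting error only, and replicate 3 gave most of it. Without that library, 7 counts stood against 1, a ratio of 9.84 (exact 95% interval 1.26 to 443). With each control library set at the 3 counts that a count of 0 allows, the level in SRRM4 KO cells was 2.62-fold that of control, and 1.12-fold without SRRM4 KO replicate 3. With no filter on low counts the gene passed narrowly (log2 fold change 4.13, adjusted p = 0.0458 by edgeR), as it did with DESeq2 (4.46, adjusted p = 0.0391). Of the receptor counts per kilobase, *EDNRA* made up 99.4%, 100% and 100% in the control libraries and 70.4%, 86.9% and 70.0% in the SRRM4 KO libraries. The means were 99.8% ± 0.334 and 75.8% ± 9.61 (SD, n = 3), and the exact permutation test gave the smallest p it can, 0.10.

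The other endothelin genes were *EDN2*, *EDN3*, *ECE2*, *FURIN*, *MME* and *KEL*, so that the list held 10 genes, of which 6 were tested. Of these, 4 rose and 1 fell, with 1 called in each direction, and the median log2 fold change was 0.76, against -0.01 over all tested genes. *FURIN*, the protease of the first cut, rose from 161 ± 27.5 to 243 ± 18.5 CPM (SD, n = 3; log2 fold change 0.60, adjusted p = 0.000523). *MME*, encoding neprilysin, which breaks down endothelin and natriuretic peptides, rose from 225 ± 26.4 to 424 ± 15.1 CPM (SD, n = 3; log2 fold change 0.91, adjusted p = 8.23e-07), and was past the fold threshold without control replicate 1 (1.01). *EDN2* was near the limit of detection, at 0.456 ± 0.130 and 0.266 ± 0.303 CPM (SD, n = 3), and did not pass. *EDN3* and *ECE2* had 0 counts in each library.

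*AGTR1* (chromosome 3, 148697784 to 148743008) encodes the type 1 angiotensin II receptor. It had 528, 325 and 477 counts in control and 334, 407 and 410 in SRRM4 KO cells. The groups overlapped, since control replicate 2 lay within the range of the SRRM4 KO libraries. The level was 20.3 ± 4.74 and 16.8 ± 1.82 CPM (SD, n = 3), with a log2 fold change of -0.27 (95% interval -0.63 to 0.08, adjusted p = 0.206 by edgeR). Without control replicate 2 the value was -0.45 and passed the adjusted p (0.0298), still inside the fold threshold.

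Of the 12 genes of the angiotensin list, 8 were tested, none rose and 3 fell, 2 of them called, with a median log2 fold change of -0.20. *ACE*, the enzyme that makes angiotensin II, had 55, 57 and 70 counts in control and 11, 2 and 3 in SRRM4 KO cells, an 11.6-fold fall (log2 fold change -3.53, adjusted p = 8.32e-05), which was -4.62 without SRRM4 KO replicate 1. *ENPEP*, which trims angiotensin II, fell from 45.0 ± 5.81 to 12.5 ± 1.18 CPM (SD, n = 3; log2 fold change -1.85, adjusted p = 2.64e-08). *CTSD*, a lysosomal protease that can cut angiotensinogen, was lower by a small margin (log2 fold change -0.25, adjusted p = 0.0467), and no longer passed in 5 of the 6 fits that left out 1 library. The precursor gene *AGT* did not pass (144 and 132 CPM, log2 fold change -0.12, 95% interval -0.29 to 0.06), nor did *ATP6AP2* (0.15), *AGTRAP* (-0.01) or *LNPEP* (-0.16). *ATP6AP2* lies on the X chromosome, and its value turned to -0.17 after each chromosome was centred and passed without control replicate 1 (0.23, adjusted p = 0.00451), while *AGTRAP* turned to 0.04 without control replicate 2 and to 0.02 without SRRM4 KO replicate 2. *AGTR2* and *MAS1* had 0 counts in each library.

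**Figure D2:**
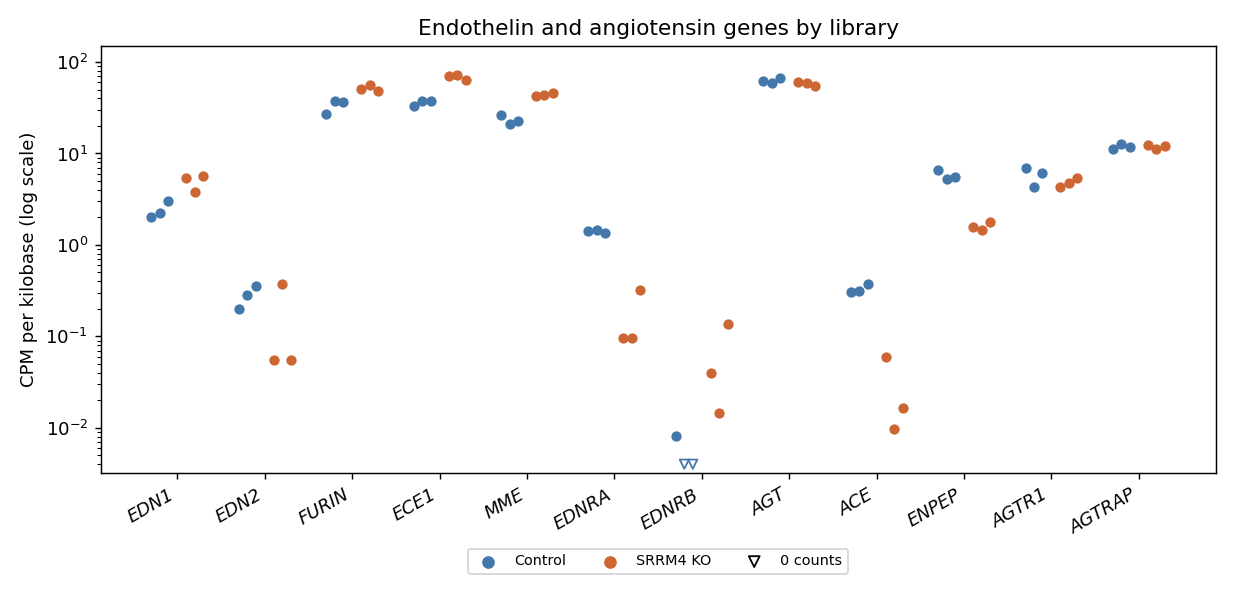
Endothelin and angiotensin genes by library, as CPM per kilobase of exon on a log scale, with control left and SRRM4 KO right for each gene and triangles for libraries with 0 counts. *EDN1*, *FURIN*, *ECE1* and *MME* stand higher in all 3 SRRM4 KO libraries, *EDNRA*, *ACE* and *ENPEP* stand lower, and the *AGTR1* points overlap.

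*NPR3* (chromosome 5, 32689070 to 32791724) encodes the clearance receptor of natriuretic peptides. It had 8130, 7224 and 7115 counts in control and 2450, 2580 and 2442 in SRRM4 KO cells. Of the 10 genes it was the one with the smallest spread among SRRM4 KO libraries, 2.45% of the mean, and the groups were far apart. The level fell from 343 ± 28.9 to 109 ± 2.67 CPM (SD, n = 3), a 3.15-fold fall (log2 fold change -1.65, standard error 0.08, 95% interval -1.83 to -1.47, adjusted p = 8.74e-10 by edgeR). Leaving out any 1 library moved the value no further than -1.71 or -1.59.

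Of the receptor enzymes, *NPR1* rose and *NPR2* fell. *NPR1*, the receptor of the atrial and B-type peptides, had 10, 10 and 32 counts in control and 72, 71 and 77 in SRRM4 KO cells, a 4.05-fold rise (log2 fold change 2.02, adjusted p = 0.0013), and 2.78 on the log2 scale without control replicate 3, the highest control library. *NPR2*, the receptor of the C-type peptide, fell slightly from 42.2 ± 3.00 to 33.4 ± 1.51 CPM (SD, n = 3; log2 fold change -0.34, adjusted p = 0.0143). It did not pass without SRRM4 KO replicate 3 (adjusted p = 0.0507) or after centring each chromosome (log2 fold change -0.10, adjusted p = 0.485), where chromosome 9, on which it lies, had a median of -0.24. Per kilobase, *NPR3* stood at 34.8 CPM in control beside 10.9 for *NPR2* and 0.157 for *NPR1*. In SRRM4 KO cells the values were 11, 8.63 and 0.643.

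Natriuretic peptide and cyclic GMP genes numbered 16, with 12 tested. Of these 3 rose and 8 fell, 3 and 6 of them called, and the median log2 fold change was -1.0. Among the peptides, *NPPB*, the B-type peptide, had 16, 10 and 11 counts in control and 3, 0 and 2 in SRRM4 KO cells, at least 4.30-fold lower (adjusted p = 0.0118), and it did not pass without SRRM4 KO replicate 2 (adjusted p = 0.0554). *NPPC* had 1 count in all. *PDE5A*, the phosphodiesterase that breaks down cyclic GMP, fell from 143 ± 23.2 to 33.3 ± 3.83 CPM (SD, n = 3; log2 fold change -2.10, adjusted p = 4.17e-09). *PDE3A*, which cyclic GMP inhibits, fell by 1.83 on the log2 scale, and *PDE2A*, which it activates, rose from 1.11 ± 0.520 to 7.35 ± 0.231 CPM (SD, n = 3; log2 fold change 2.72, adjusted p = 2.00e-06).

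The cyclic GMP-dependent kinases were lower. *PRKG2* went from 152, 116 and 112 counts to 0 in all 3 SRRM4 KO libraries, which makes it at least 44.2-fold lower (adjusted p = 7.53e-08), and *PRKG1* fell from 47.5 ± 6.65 to 28 ± 0.969 CPM (SD, n = 3; log2 fold change -0.76, adjusted p = 7.36e-05). Of the nitric oxide-sensitive guanylyl cyclase subunits, *GUCY1A2* fell (log2 fold change -1.24) and *GUCY1B1* rose (1.55), from 1.70 ± 0.633 to 4.95 ± 1.19 CPM (SD, n = 3). With *NPPB* and *PRKG2* set at their bounds, the median of the list stayed -1.0.

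**Figure D3:**
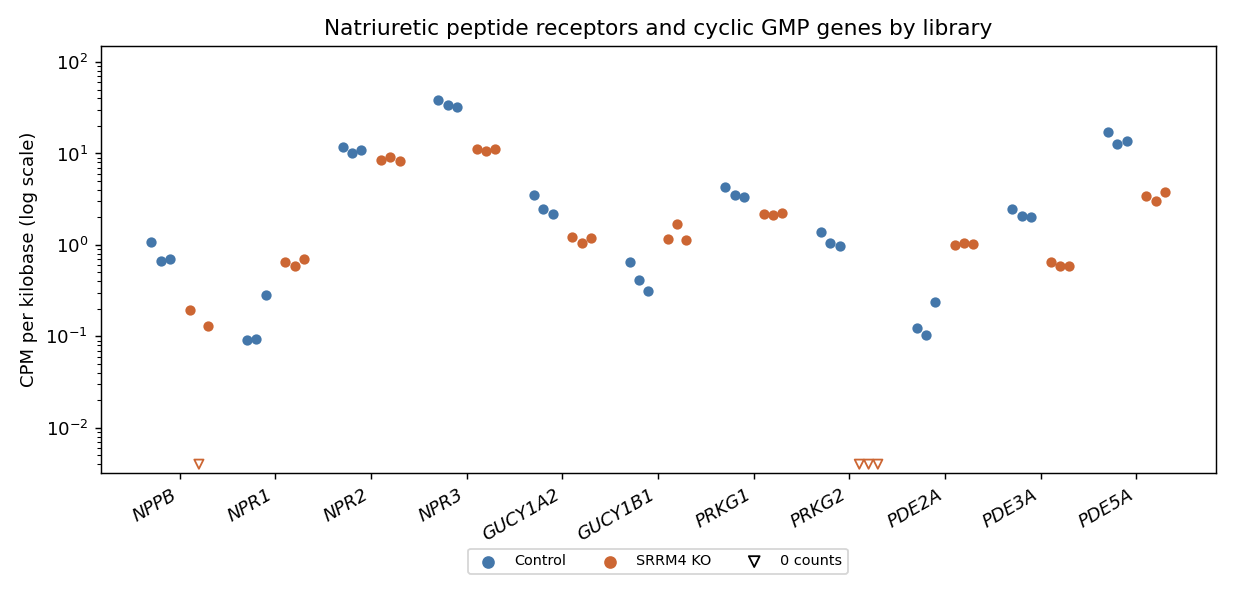
Natriuretic peptide receptors and cyclic GMP genes by library, as CPM per kilobase of exon on a log scale, with control left and SRRM4 KO right for each gene and triangles for libraries with 0 counts. *NPR3* stands between 32.3 and 38.0 in control and between 10.7 and 11.2 in SRRM4 KO cells, *NPR1*, *GUCY1B1* and *PDE2A* stand higher in SRRM4 KO cells, and *PRKG2* has triangles in all 3.

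*PTGS2* (chromosome 1, 186671791 to 186680427) is the inducible cyclooxygenase, known as COX-2. It had 118, 48 and 112 counts in control and 201, 236 and 219 in SRRM4 KO cells. Control replicate 2 was the lowest control library by far, and the SRRM4 KO libraries were nearly level. The mean rose from 4.23 ± 1.75 to 9.55 ± 0.479 CPM (SD, n = 3), a 2.26-fold rise (log2 fold change 1.17, standard error 0.25, 95% interval 0.63 to 1.71, adjusted p = 0.00163 by edgeR). Without control replicate 2 the log2 fold change was 0.87, under the fold threshold, and still passed the adjusted p (0.00236). *PTGS1*, the constitutive enzyme known as COX-1 (chromosome 9, 122370530 to 122395703), had 4, 0 and 0 counts in control and 4, 1 and 2 in SRRM4 KO cells. Its groups overlapped at this depth, and the ratio of summed counts was 1.67 (exact 95% interval 0.42 to 7.79, for counting error only). *PTGS2* made up 99.0% ± 1.73 of the cyclooxygenase counts per kilobase in control and 99.0% ± 0.713 in SRRM4 KO cells (SD, n = 3).

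*PTGIS* (chromosome 20, 49503874 to 49568146), prostacyclin synthase, showed the largest fitted change of the 10 genes. It had 336, 392 and 408 counts in control and 2, 10 and 1 in SRRM4 KO cells. In both replicates 1 and 3 of the SRRM4 KO line it was within the 3 counts that a count of 0 allows. The level fell from 17.3 ± 1.58 to 0.182 ± 0.199 CPM (SD, n = 3), an 89.2-fold fall (log2 fold change -6.48, standard error 0.34, 95% interval -7.20 to -5.75, adjusted p = 1.17e-09 by edgeR). Without SRRM4 KO replicate 2, which gave 10 of the 13 counts, the summed counts were 256-fold lower (exact 95% interval 87.3 to 1242, for counting error only, from 3 counts), or 128-fold lower with both remaining SRRM4 KO libraries set at 3 counts.

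Other synthases differed from one another. *PTGES*, the inducible prostaglandin E synthase, had 1345, 1465 and 1658 counts in control and 253, 364 and 228 in SRRM4 KO cells, a 5.56-fold fall (log2 fold change -2.48, standard error 0.14, adjusted p = 2.14e-09). *PTGES2* did not pass (34.7 ± 3.19 and 32.1 ± 1.59 CPM, SD, n = 3; log2 fold change -0.11, 95% interval -0.34 to 0.12), with a value of 0.13 after centring each chromosome. *PTGES3*, a cochaperone also known as p23, rose from 233 ± 16.8 to 327 ± 30.3 CPM (SD, n = 3; log2 fold change 0.49, adjusted p = 0.000342). *AKR1C3*, which makes prostaglandin F, was lower (log2 fold change -0.68, adjusted p = 0.000311), with the reserve that it shares near-identical sequence with other *AKR1C* genes, among which reads may be split. *AKR1B1* did not pass (-0.01), and turned to 0.24 with chromosomes centred (adjusted p = 0.0324) and to 0.03 without control replicate 2. Of the 16 genes of prostanoid synthesis 9 were tested, 2 rose and 4 fell, with 1 called higher and 2 lower, and the median log2 fold change was -0.32. *PTGDS*, *PLA2G2A*, *PLA2G5* and *PLA2G10* had 0 counts in each library.

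On chromosome 1 the tested gene next to *PTGS2* was *PLA2G4A*, encoding the cytosolic phospholipase that releases arachidonic acid, which was named after its values were seen. It had 221, 238 and 211 counts in control and 156, 130 and 154 in SRRM4 KO cells, with no overlap, and its log2 fold change was -0.67 (adjusted p = 0.00527), while *PTGS2* rose.

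*PTGER2* (chromosome 14, 52314305 to 52328606) encodes EP2, a receptor of prostaglandin E2 that raises cyclic AMP. It had 18, 12 and 17 counts in control and 52, 80 and 73 in SRRM4 KO cells. The lowest SRRM4 KO library was well above the highest control library. The level rose from 0.716 ± 0.142 to 2.98 ± 0.558 CPM (SD, n = 3), a 4.13-fold rise (log2 fold change 2.05, standard error 0.36, 95% interval 1.27 to 2.82, adjusted p = 0.000329 by edgeR), and it was called in each of the 6 fits that left out 1 library.

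Receptors of prostanoids went both ways. *PTGER3*, encoding EP3, which lowers cyclic AMP, had 98, 65 and 100 counts in control and 9, 14 and 11 in SRRM4 KO cells, an 8.03-fold fall (log2 fold change -3.0, adjusted p = 7.20e-06). *PTGER4*, encoding EP4, which like EP2 raises cyclic AMP, was the most abundant prostanoid receptor gene per length in both groups (12.3 and 9.94 CPM per kilobase), with a log2 fold change of -0.30 (adjusted p = 0.0214). It did not pass without control replicate 3 (adjusted p = 0.0693), without SRRM4 KO replicate 1 (0.113) or with chromosomes centred (0.0667). *PTGFR*, the prostaglandin F receptor, rose from 16.3 ± 1.37 to 36.5 ± 4.76 CPM (SD, n = 3; log2 fold change 1.16, adjusted p = 3.57e-06). The prostacyclin receptor gene *PTGIR* did not pass (5.17 ± 1.60 and 3.91 ± 0.949 CPM, SD, n = 3; log2 fold change -0.40, 95% interval -0.95 to 0.16). The thromboxane receptor gene *TBXA2R* narrowly missed the adjusted p (8.18 ± 1.32 and 5.61 ± 1.42 CPM, SD, n = 3; log2 fold change -0.54, adjusted p = 0.0505), and passed it in 8 alternatives, at values from 0.0171 without control replicate 1 to 0.0491 with RLE normalization. Of the 9 receptor genes 6 were tested, 2 rose and 2 fell, with 2 called higher and 1 lower, and the median log2 fold change was -0.35. Of 6 genes of prostanoid transport and breakdown 4 were tested and 1 fell, *PTGR1* (log2 fold change -0.47, adjusted p = 0.0209), which did not pass without control replicate 3 (adjusted p = 0.0929), without SRRM4 KO replicate 3 (0.0928) or with chromosomes centred (0.263). *ABCC4* (-0.15) and *CBR1* (-0.03) did not pass, and their values turned to 0.11 with chromosomes centred and to 0.005 without control replicate 3.

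**Figure D4:**
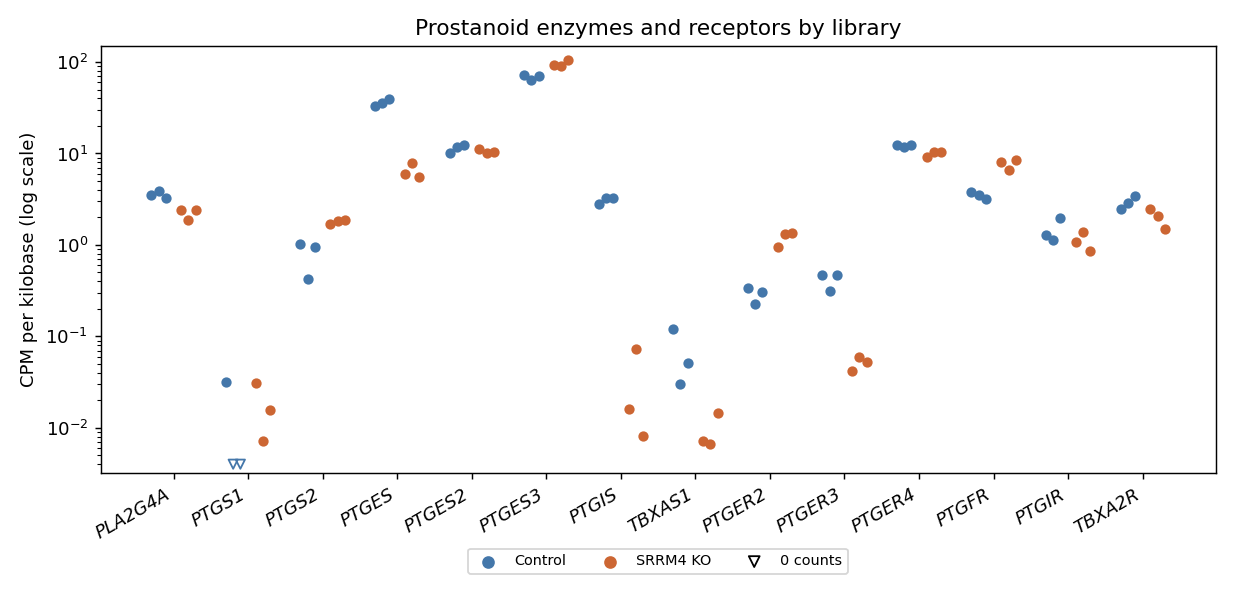
Prostanoid enzymes and receptors by library, as CPM per kilobase of exon on a log scale, with control left and SRRM4 KO right for each gene and triangles for libraries with 0 counts. *PTGES*, *PTGIS* and *PTGER3* stand lower and *PTGS2*, *PTGER2* and *PTGFR* higher in all 3 SRRM4 KO libraries, and *PTGS1* is near 0 counts throughout.

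A further list, of Gq, phospholipase C, IP3 receptor and RGS genes, held 14 symbols. Of its 11 tested genes 2 rose and 3 fell, with *ITPR1* called lower (42.8 ± 2.51 to 17.3 ± 1.46 CPM, SD, n = 3; log2 fold change -1.30, adjusted p = 2.68e-07), and the median was 0.04. *PLCB1* fell by 0.89 on the log2 scale and *GNAQ* fell by 0.53, the second no longer past the adjusted p with chromosomes centred (0.0515). *PLCB4* (0.41) and *ITPR3* (0.36) rose, *PLCB4* not without control replicate 2 (adjusted p = 0.0949), control replicate 3 (0.077) or SRRM4 KO replicate 3 (0.0843), nor with chromosomes centred (0.13). *ITPR3* shares exon bases with *UQCC2* on the other strand, and in non-stranded libraries their reads cannot be told apart. *GNA11*, *PLCB3*, *ITPR2*, *RGS3* and *RGS4* did not pass, at log2 fold changes between -0.14 and 0.20. *GNA11* passed without control replicate 2 (0.30, adjusted p = 0.0369) and *RGS3* with chromosomes centred (0.28, adjusted p = 0.0412). With 1 library left out *ITPR2* reached -0.04 and *RGS3* reached -0.04, against 0.04 each with all libraries.

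Over all of these lists, 83 symbols, 56 genes were tested. Of these 13 rose and 22 fell, where 20.7% and 20.9% of all tested genes did, and 7 were called higher and 13 lower, where the shares were 5.45% and 7.14%. The median log2 fold change was -0.26, beside -0.01 over all tested genes. The 10 genes described above are among them.

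**Figure D5:**
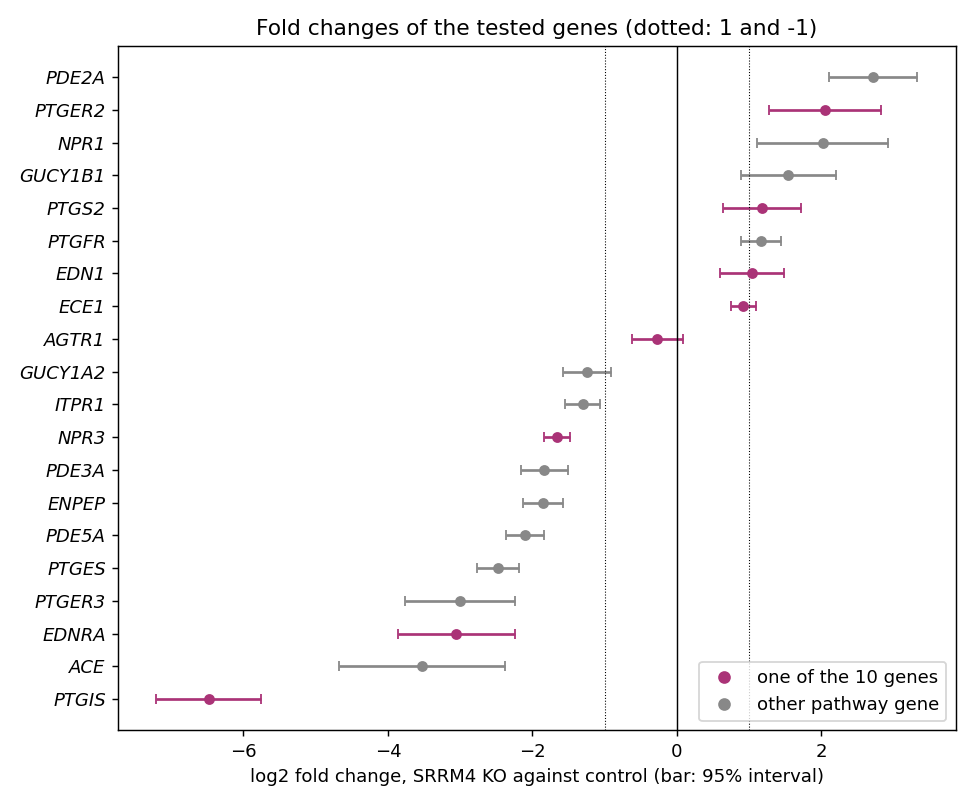
Log2 fold change of SRRM4 KO against control with 95% intervals, for the 8 tested of the 10 genes and the other pathway genes that were called. Genes with 3 counts or fewer in each SRRM4 KO library (*NPPB*, *PRKG2*) are left out, and dotted lines mark the fold threshold. *PTGIS* lies farthest to the left at -6.48. The intervals of *EDN1*, *ECE1*, *PTGS2*, *PTGFR* and *GUCY1B1* span the upper dotted line, that of *GUCY1A2* spans the lower one, and that of *AGTR1* spans 0.

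Between genes, levels were compared per kilobase. In control the order was *ECE1* (36.0 CPM per kilobase), *NPR3* (34.8), *AGTR1* (5.83), *PTGIS* (3.10), *EDN1* (2.42), *EDNRA* (1.42), *PTGS2* (0.803), *PTGER2* (0.290), *PTGS1* (0.0106) and *EDNRB* (0.00274). Neighbours whose libraries overlapped were *ECE1* and *NPR3*, *PTGIS* and *EDN1*, and *PTGS1* and *EDNRB*. In SRRM4 KO cells the order became *ECE1* (68.2), *NPR3* (11), *EDN1* (4.97), *AGTR1* (4.82), *PTGS2* (1.81), *PTGER2* (1.20), *EDNRA* (0.171), *EDNRB* (0.0641), *PTGIS* (0.0326) and *PTGS1* (0.0179). *EDN1* and *AGTR1* overlapped, as did each neighbouring pair from *EDNRA* down. *ECE1* and *NPR3*, level in control, were apart in SRRM4 KO cells, and *PTGIS* went from the fourth place to the ninth.

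Endothelial and smooth muscle cells make several of these genes, so their markers were read in the same libraries. Of 8 endothelial genes, *PECAM1*, *CDH5* and *CLDN5* had at most 4 counts in any library. The summed level of the list went from between 23.3 and 26.3 CPM to between 4.52 and 5.95 CPM. Most of it in control came from *TEK* (13.7 CPM) and *KDR* (9.42 CPM). Of 3 tested genes, *KDR* (log2 fold change -1.60) and *TEK* (-3.80) were called lower. *VWF* did not pass (-0.35, adjusted p = 0.587 by edgeR), and its value was 0.19 without control replicate 2. Of 8 smooth muscle and pericyte symbols 6 were tested, 4 fell and 1 rose. Their summed level went from between 2675 and 3238 CPM to between 1695 and 1873 CPM. *ACTA2*, which shares exon bases with *FAS*, fell by 3.26 and *CNN1* fell by 2.10 on the log2 scale, while *CSPG4* rose (1.46). *MYH11*, a marker of mature smooth muscle, stood at 0.924 ± 0.499 and 0.384 ± 0.156 CPM (SD, n = 3) and did not pass (adjusted p = 0.101 by edgeR). It shares 765 exon bases with *NDE1* on the other strand, which had 4158 counts in all against 87 for *MYH11*. In non-stranded libraries their reads there cannot be told apart. Haematopoietic markers numbered 6, with 2 tested and 0 past the adjusted p, *CD14* (-0.08) and *CD34* (-0.02, but 0.08 without control replicate 3), and a summed level of 20.3 to 21.4 CPM in control and 17.9 to 21 CPM in SRRM4 KO cells. Of the 5 stem cell markers *CD44* was called higher (1.39) and *THY1* lower (-2.43). The other 3 passed the adjusted p below the fold threshold, and *NT5E* (0.52) and *ALCAM* (0.51) rose while *ENG* (-0.34) fell. *ENG* no longer passed with chromosomes centred (-0.10, adjusted p = 0.364 by edgeR). The summed level was 1453 to 1557 CPM in control and 1929 to 2014 CPM in SRRM4 KO cells. The part of these markers in the results above was not tested. Both groups were cultures of the UE7T-9 line, and the SRRM4 KO line was grown from 1 clone. In bulk RNA, fewer cells that express a gene and less of its RNA per cell cannot be told apart.

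The chromosomes around the 10 genes were also read. Over the 20 tested genes nearest to each, 10 on either side, the median log2 fold change lay between -0.43 (*PTGS1*) and 0.23 (*AGTR1*), and no member that was called had neighbours with a median beyond 0.21 in either direction. Medians of their whole chromosomes lay between -0.27 (chromosome 13, *EDNRB*) and 0.15 (chromosome 20, *PTGIS*). Among direct neighbours, *B4GALT5* beside *PTGIS* rose (log2 fold change 0.33, adjusted p = 0.00431), and *AC093908.1* beside *EDNRA* fell (-2.42, adjusted p = 0.0195). Centring each chromosome on its median put *EDN1* at 0.94, under the fold threshold, and changed no other call among the 10 genes. Exons of *ECE1* and *EDNRB* share 240 and 80 bases with a gene on the opposite strand (*AL031728.1* and *RNF219-AS1*), each of which had at most 7 counts in a library.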

How the data were processed

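RNA of 3 control and 3 SRRM4 KO libraries was measured by non-stranded mRNA-seq. The authors deposited whole-number counts per gene, not normalized. The submitters' processing notes name HISAT2 2.0.5, featureCounts 1.5.0-p3 and DESeq2; their options are not given in the sources used here. All 58735 gene IDs matched GENCODE release 29 (GRCh38) in start and end, and the deposited gene length, used to scale CPM per kilobase, equalled its exonic bases for all 10 genes.

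The counts were fitted with edgeR 4.0.16 in R 4.3.3 (TMM, filterByExpr with a minimum count of 10, prior count 0.125, two-sided quasi-likelihood test, Benjamini-Hochberg over all 15341 tested genes). CPM uses TMM-scaled library sizes. Standard errors come from the fold change and the F statistic. For *NPPB* and *PRKG2*, with at most 3 counts in every SRRM4 KO library, a bound against 3 counts per library is given, and for *EDNRB* and *PTGS1* a ratio of summed counts with its exact interval. The members and gene lists were chosen with earlier results of these data known. Named genes are all 10, called genes of the pathway lists, those with a mean of at least 10 CPM, and the called or undetected markers. Other genes named, such as *EDN2*, *NPPC*, *PLA2G4A*, *PTGIR*, *TBXA2R*, further markers, neighbours on the chromosome and pathway genes with 0 counts, were chosen after their values were seen. The symbol *RGS5* has 2 gene IDs and was left out. Ratios of receptor and cyclooxygenase counts had been planned; because some denominators were 0, shares are given, and these and the *EDNRB* ratio and *PTGIS* ratio without 1 library were chosen after seeing the data. Alternatives were RLE and upper-quartile normalization, other filters, a replicate block, leaving out each library, DESeq2 1.42.0, other thresholds and centring each chromosome. The fits were tested on simulated counts. A few genes of the lists and of the neighbourhoods are not reported here.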

Additional observations from a re-analysis of the deposited data

How the results depend on the processing

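Among the 10 genes the direction of each tested gene held under every alternative run. With a test against the fold threshold itself (glmTreat) 1 gene, *PTGER2*, was called higher and 3 lower, and under a minimum of 10 counts per library 1 was called lower, because *EDNRA* and *PTGIS* are then not tested. With each library left out in turn, the number called higher ran from 1 to 3, at 1 without control replicate 2, and that called lower was 3 in each fit. Over all genes, glmTreat called 360 higher and 577 lower, and without the fold threshold 3171 were higher and 3213 lower, and with a library left out 791 to 875 were higher and 1029 to 1162 lower. Of the pathway lists, glmTreat called 2 higher and 11 lower, and removal of the fold threshold gave 13 higher and 22 lower. The 10-count filter left 7 lower, and leaving out a library gave 5 to 7 higher and 12 to 13 lower. The *EDNRA* share differed by -29.6 to -21.2 percentage points with a library left out, and the *PTGS2* share by -0.996 to 0.50.

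The replicate numbers did not pair the libraries: deviations of same-numbered libraries correlated at -0.05, 0.08 and -0.05, and control replicate 1 correlated best with SRRM4 KO replicate 3 (0.16). With the replicate number as a block, 842 genes were called higher and 1093 lower, and among the 10 genes 3 and 3. *PTGIS* in SRRM4 KO cells, *PTGS1* and *EDNRB* lie near the limit of 3 counts, so their levels are limited by depth.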
